A study of Mus musculus with 4 samples.

Results

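The 216 transcripts described here are the RefSeq noncoding entries (accession prefix NR_) that reached at least 300 counts summed over the 3 mRNA libraries of mouse embryonic stem cells, without 8 named host or imprinted transcripts and without symbols of the Zfp, Rpl, Rps, Psm and Trim families. They were chosen from 619 noncoding entries among 13815 genes of the mRNA table. Of the 228 noncoding entries at that level, 4 were left out by name (Mir17hg, D7Ertd143e, Rian and Meg3) and 8 by family symbol. The choice used summed counts, so a high total is no result here. The lowest totals kept were 301 for BC052688, 302 for Adarb1 and 303 for Snhg7, and the highest left out were 298 for Pvt1, 298 for 4930461G14Rik and 297 for Parp6.

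Poly(A)+ RNA was sequenced as 1 library each from dgcr8-/- cells, called Dgcr8 knockout below, dicer-/- cells, called Dicer knockout, and WT cells. Small RNA was sequenced from WT cells alone. All are labelled as strain V6.5, a hybrid mouse embryonic stem cell line, and were grown in DMEM with 1000 units/mL ESGRO, a commercial leukemia inhibitory factor, and 15% fetal bovine serum. The mRNA libraries used 200 ng poly(A)+ RNA and a strand-marking kit, and the small RNA library used 10 ug total RNA. The labels do not say how the alleles were made, how many clones stand behind a line, or whether feeder cells were present.

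The Microprocessor, made of the nuclease Drosha and its RNA-binding cofactor Dgcr8, cuts microRNA hairpins out of primary transcripts in the nucleus. Dicer cuts the exported hairpins into mature microRNAs, so both deletions remove canonical microRNAs at successive steps. Many long noncoding RNAs are spliced and polyadenylated like mRNAs. Some act as RNAs, such as Neat1, the scaffold of nuclear paraspeckles. Others carry small nucleolar RNAs (snoRNAs), which guide the chemical modification of ribosomal RNA, in their introns. The exons of many such snoRNA hosts are degraded by nonsense-mediated decay in the cytoplasm, and many host genes start transcription within a run of pyrimidines, as ribosomal protein genes do.

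Each group has 1 mRNA library, so no difference has a replicate check and no test was run. Totals were 11123498 counts in the Dgcr8 knockout library, 12309100 in the Dicer knockout library and 9931625 in the WT library. Values are counts scaled to each library's total over the whole table (CPM, counts per 1000000 counts). They are not divided by transcript length, so levels of different genes are not compared. Each ratio of CPM carries an exact conditional binomial 95% interval that covers counting error only. Counts from 2 to 9 were even in 74.8% of cases in the Dgcr8 knockout library, 69.7% in the Dicer knockout library and 69.6% in the WT library. If both mates of a read pair were counted, the intervals are too narrow. A gene was called at a 2-fold difference on log2(CPM + 1), and log2 ratios below use that scale, which understates the change of low genes. Dgcr8 had 20.9 CPM in the Dgcr8 knockout library, 84.7 CPM in the Dicer knockout library and 52.7 CPM in the WT library. Dicer1 had 128 CPM in the Dgcr8 knockout library, 20.1 CPM in the Dicer knockout library and 79.9 CPM in the WT library, so each targeted gene was lowest in its own knockout. The 6 stem cell markers fixed for the check (Pou5f1, Nanog, Sox2, Esrrb, Sall4 and Utf1) were present in every library, with summed levels of 4119, 3505 and 3914 CPM in the Dgcr8 knockout, Dicer knockout and WT libraries. Of 7 fibroblast markers 2 are in the table, Thy1 and Col1a1. Their summed level was 2.61 CPM in the Dgcr8 knockout library, 1.71 CPM in the Dicer knockout library and 27.4 CPM in the WT library, and none was at 0. Fibroblast markers therefore stood higher in WT, and their part in any difference from WT was not tested. In such bulk libraries fewer cells of a type and less RNA per cell cannot be told apart.

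Of the classes with more than 3 members, the snoRNA hosts had the median farthest below that of the table in the Dgcr8 knockout library, and the sequence round their transcription starts is shown first. Each line gives 60 bases of the RefSeq promoter table (build GRCm38.p6), 5′ to 3′ on the gene's strand, with the annotated start at base 21. Capitals mark a run of at least 5 C or T bases that overlaps the stretch from 2 bases before the start to 5 bases from it. The first 4 hosts were low in both knockout libraries against WT.
Snhg8 (chr3:123508297-123508356, minus strand): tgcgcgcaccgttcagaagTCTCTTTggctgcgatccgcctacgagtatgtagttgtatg
Snhg3 (chr4:132353647-132353706, minus strand): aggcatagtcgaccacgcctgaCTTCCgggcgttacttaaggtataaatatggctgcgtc
Snhg7 (chr2:26640205-26640264, minus strand): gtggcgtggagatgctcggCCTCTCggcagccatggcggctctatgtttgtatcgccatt
2410006H16Rik (chr11:62602857-62602916, plus strand): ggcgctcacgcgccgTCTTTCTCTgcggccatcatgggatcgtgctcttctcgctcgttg
Snhg1 (chr19:8723467-8723526, plus strand): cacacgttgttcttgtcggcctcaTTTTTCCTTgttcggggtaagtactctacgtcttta
Snhg12 (chr4:132308658-132308717, plus strand): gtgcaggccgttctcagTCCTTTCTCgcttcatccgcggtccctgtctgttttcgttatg
Gas5, 2nd start (chr1:161035146-161035205, plus strand): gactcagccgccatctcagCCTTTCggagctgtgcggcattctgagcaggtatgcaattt
Snhg20 (chr11:117076763-117076822, plus strand, no run): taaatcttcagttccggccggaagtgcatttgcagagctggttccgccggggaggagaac
Dancr (chr5:74093040-74093099, plus strand, no run): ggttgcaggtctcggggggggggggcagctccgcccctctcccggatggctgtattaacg
Snhg5 (chr9:88522858-88522917, minus strand, no run): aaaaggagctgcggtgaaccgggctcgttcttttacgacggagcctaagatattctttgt
Snhg15 (chr11:6528721-6528780, minus strand, no run): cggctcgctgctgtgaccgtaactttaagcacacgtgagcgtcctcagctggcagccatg

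Snhg1, Snhg12 and Gas5 are shown because they carry a run and lay near WT in the Dicer knockout library, and Snhg20, Dancr, Snhg5 and Snhg15 because they are the 4 hosts with no run at any start in the table. Of those 4, Snhg20, Dancr and Snhg5 were below WT in both knockouts, and Snhg15 was the host that was not lower in the Dgcr8 knockout library. Starts were found for 13 of the 16 noncoding host entries other than the 2 of Snhg14, and 9 of the 13 have a run at a start or at one of their starts. The run stood at 10 of 16 annotated starts of noncoding hosts (62.5%), at 8528 of 32851 starts of all genes in the table of promoters (26.0%), at 35 of 136 starts of the other members (25.7%) and at 5 of 12 starts of a list of known 5′ terminal oligopyrimidine genes. The 10 starts include both starts of 1110038B12Rik, whose windows overlap and hold the same run, so starts of the same gene are not independent. Only the gene's own strand was searched, and this way of searching was chosen after these sequences had been seen. A run of letters is a description of the window and not a shown start of transcription.

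The word noncoding holds for the entry and only in part for the gene. By RefSeq gene type 87 of the 216 members belong to genes typed as protein-coding, 72 to pseudogenes and 54 to long noncoding RNA genes, and 3 (Gm17066, BC033916 and LOC106740) matched no gene. For 84 of the 87 coding genes the noncoding entry was the gene's single entry in the mRNA table, so its counts may hold the reads of the coding transcripts too. Members held 3.05% of all counts in the Dgcr8 knockout library, 2.93% in the Dicer knockout library and 3.07% in the WT library. Pseudogenes took 79.2%, 76.0% and 79.0% of the members' counts in the Dgcr8 knockout, Dicer knockout and WT libraries, so most reads of the group are reads assigned to pseudogenes. By contrast the 54 long noncoding RNA genes took 5.17%, 7.25% and 6.10% of the members' counts in those libraries.

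All 216 members passed the floor of 1 CPM in either library in all 3 comparisons, a floor that the choice by summed counts makes easy to pass. In the Dgcr8 knockout against WT, 17 members were 2-fold higher and 24 were 2-fold lower, where 14.3% of all genes tested were higher and 8.02% were lower. The median log2 ratio of the members was -0.02, against 0.11 for all genes tested. In the Dicer knockout against WT, 22 members were higher and 21 lower, where 16% of all genes tested were higher and 9.7% lower, and the medians were 0.05 for members and 0.10 for all genes. Of all members 19% in the Dgcr8 and 19.9% in the Dicer knockout passed 2-fold in either direction, against 22.3% and 25.7% of all genes, so 2-fold calls were no more frequent among the members than in the table. Between the knockouts, Dgcr8 over Dicer, 4 members were higher and 9 lower, where 4.15% and 5.05% of all genes were, and the medians were -0.12 and 0.00. Calls in either direction made up 6.02% of members and 9.2% of all genes, and the counting interval lay wholly below 1 for 94 members, against 29.1% of all genes, and wholly above 1 for 56, against 30.6%. Both comparisons with WT share the WT library. Under the other scalings tried (median-ratio and TMM) the median of all genes moved by -0.13 and -0.11 for Dgcr8 knockout over WT and by -0.11 and -0.10 for Dicer knockout over WT. The share of all calls that were higher was then 53.6% and 55.4% in the Dgcr8 knockout in place of 64.1%.

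**Figure D1:**
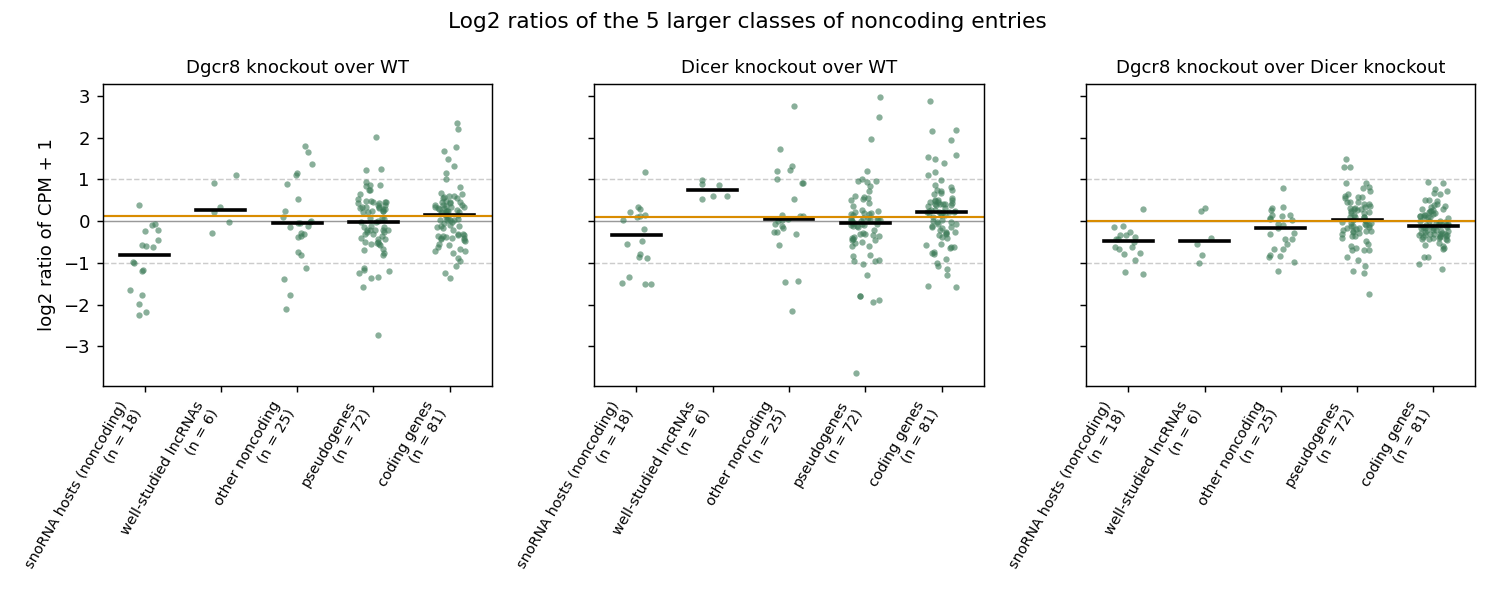
Log2 ratio of CPM + 1 (vertical axis) of each member in the 5 larger classes (horizontal axis), 1 point per member, for Dgcr8 knockout over WT, Dicer knockout over WT, and Dgcr8 knockout over Dicer knockout. Black bars are class medians, the orange line is the median of all genes tested and dashed lines mark 2-fold; the 18 noncoding snoRNA hosts have a median of -0.80 in the first panel, and the other classes there have medians between -0.06 and 0.27.

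Noncoding snoRNA hosts were lower in the Dgcr8 knockout library. The class held 21 members by a list of hosts or by a snoRNA gene inside their span, 18 of them noncoding genes, and 3 coding genes (Rabggtb, Dlg1 and Lrrc28). Of the 18, 17 had a log2 ratio below 0 in the Dgcr8 knockout against WT, a sign that 43.8% of all genes had. Of them 7 were 2-fold lower and none was higher, against 8.02% and 14.3% of all genes, with a median of -0.80. The counting interval lay wholly below 1 for 15 of 18, against 29.6% of all genes. Noncoding entries under 300 summed counts, which are not members, leaned the same way in the Dgcr8 knockout, with a median of -0.37. Of 334 such entries tested 207 were below 0, 62 were 2-fold lower and 28 were 2-fold higher. Their median in the Dicer knockout was -0.21, and of 346 tested there 202 were below 0, 66 were 2-fold lower and 38 were 2-fold higher. In the Dicer knockout 10 of the 18 were below 0, against 45.1% of all genes, 4 were 2-fold lower and 1 was higher, against 9.7% and 16% of all genes, and the median was -0.33. The interval lay wholly below 1 for 10 of 18 there, against 32.3% of all genes. Together the 18 hosts had 326 CPM in the Dgcr8 knockout library, 463 CPM in the Dicer knockout library and 573 CPM in the WT library. Under both other scalings 17 of 18 stayed below 0 in the Dgcr8 knockout with 9 past 2-fold, while in the Dicer knockout the number below 0 was 12, since Snhg12 and Gm11974 changed sign.

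The largest differences among the hosts were in Snhg8, Snhg4, Snhg6, Snhg3 and 2810008D09Rik (Snhg20). Snhg8 had 4.58 CPM (51 counts) in the Dgcr8 knockout library, 8.53 CPM (105 counts) in the Dicer knockout library and 25.8 CPM (256 counts) in the WT library. Snhg4 had 6.38, 10.7 and 32.2 CPM in the Dgcr8 knockout, Dicer knockout and WT libraries. Both were lowest in the Dgcr8 knockout library, with Snhg8 at 0.178 times WT (0.129 to 0.241) there and 0.331 times WT (0.261 to 0.417) in the Dicer knockout, and Snhg4 at 0.198 times WT (0.151 to 0.257) and 0.333 times WT (0.27 to 0.409). Snhg3 had 11 CPM in the Dgcr8 knockout library, 15.1 CPM in the Dicer knockout library and 39.9 CPM in the WT library. Snhg20 had 10.2, 11.4 and 34.2 CPM in the Dgcr8 knockout, Dicer knockout and WT libraries. The knockout libraries lay closer to each other than to WT for these hosts: Snhg20 was at 0.299 times WT (0.24 to 0.371) in the Dgcr8 knockout and 0.332 times WT (0.271 to 0.406) in the Dicer knockout. Snhg6 had 11.2 CPM in the Dgcr8 knockout library, 27.3 CPM in the Dicer knockout library and 47.7 CPM in the WT library. The 3 libraries were thus spaced apart for Snhg6, at 0.235 times WT (0.192 to 0.287) in the Dgcr8 knockout and 0.572 times WT (0.496 to 0.659) in the Dicer knockout.

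Smaller hosts followed with the Dgcr8 knockout library lowest. Snhg7 had 5.84 CPM (65 counts) in the Dgcr8 knockout library, 7.56 CPM (93 counts) in the Dicer knockout library and 14.6 CPM (145 counts) in the WT library. 2410004N09Rik (Epb41l4aos) had 6.74, 11 and 16.5 CPM in the Dgcr8 knockout, Dicer knockout and WT libraries. Those were the other 2 hosts called lower in the Dgcr8 knockout, with log2 ratios of -1.19 and -1.18. Dancr, known in human skin as a repressor of progenitor differentiation, had 7.10 CPM in the Dgcr8 knockout library, 10.5 CPM in the Dicer knockout library and 14.9 CPM in the WT library. 2410006H16Rik had 30.7, 33.1 and 62.0 CPM in those libraries. Both lay just inside the 2-fold mark in the Dgcr8 knockout, at log2 ratios of -0.97 and -0.99, and passed it under the other scalings.

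The hosts Gas5, Snhg1, Snhg12, 9430008C03Rik (Snhg17) and 1110038B12Rik gave another order. Gas5, named for its rise in growth-arrested cells, had 71.3 CPM in the Dgcr8 knockout library, 93.1 CPM in the Dicer knockout library and 84.7 CPM in the WT library. Snhg1 had 41.4, 52.1 and 48.1 CPM in the Dgcr8 knockout, Dicer knockout and WT libraries. Both were lowest in the Dgcr8 knockout and highest in the Dicer knockout library, with ratios to WT of 0.842 (0.763 to 0.929) and 0.859 (0.754 to 0.979) in the Dgcr8 knockout. Snhg17 had 9.08 CPM in the Dgcr8 knockout library, 18.1 CPM in the Dicer knockout library and 14.6 CPM in the WT library, and 1110038B12Rik had 19.1, 33.6 and 28.8 CPM. Snhg12 had 13.1 CPM in the Dgcr8 knockout library, 20.9 CPM in the Dicer knockout library and 20.5 CPM in the WT library. In these 3 the Dgcr8 knockout library was low while the Dicer knockout library was near or above WT. Snhg5 had 32.1, 38.4 and 44.0 CPM in the Dgcr8 knockout, Dicer knockout and WT libraries, a shallow slope in the order of the first hosts.

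Snhg14 and Snhg15 were the exceptions. Snhg14 is the long imprinted transcript of the Prader-Willi region that carries snoRNA clusters, and 2 entries matched it. D7Ertd715e had 15.1 CPM in the Dgcr8 knockout library, 37.7 CPM in the Dicer knockout library and 16 CPM in the WT library, and C230091D08Rik had 14.7, 20.3 and 15.9 CPM. D7Ertd715e stood apart in the Dicer knockout library alone, at 2.35 times WT (1.96 to 2.84), and C230091D08Rik was at 1.28 times WT (1.04 to 1.57) there. As both entries are from 1 gene they are not independent, and without them the medians of the other 16 hosts were -0.98 in the Dgcr8 knockout against WT and -0.51 in the Dicer knockout against WT. Snhg15 (listed as Gm11974) had 16.8 CPM in the Dgcr8 knockout library, 13.6 CPM in the Dicer knockout library and 12.7 CPM in the WT library. It was the single host above WT in the Dgcr8 knockout, at 1.33 times WT (1.05 to 1.67).

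The difference between the knockouts, taken directly, was in the same direction for most hosts. For Dgcr8 over Dicer 17 of 18 were below 0, against 49.7% of all genes, and the median was -0.47. The interval lay wholly below 1 for 14 of 18, against 29.1% of all genes. D7Ertd715e and Snhg6 passed 2-fold, at ratios of 0.401 (0.334 to 0.479) and 0.412 (0.333 to 0.507).

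**Figure D2:**
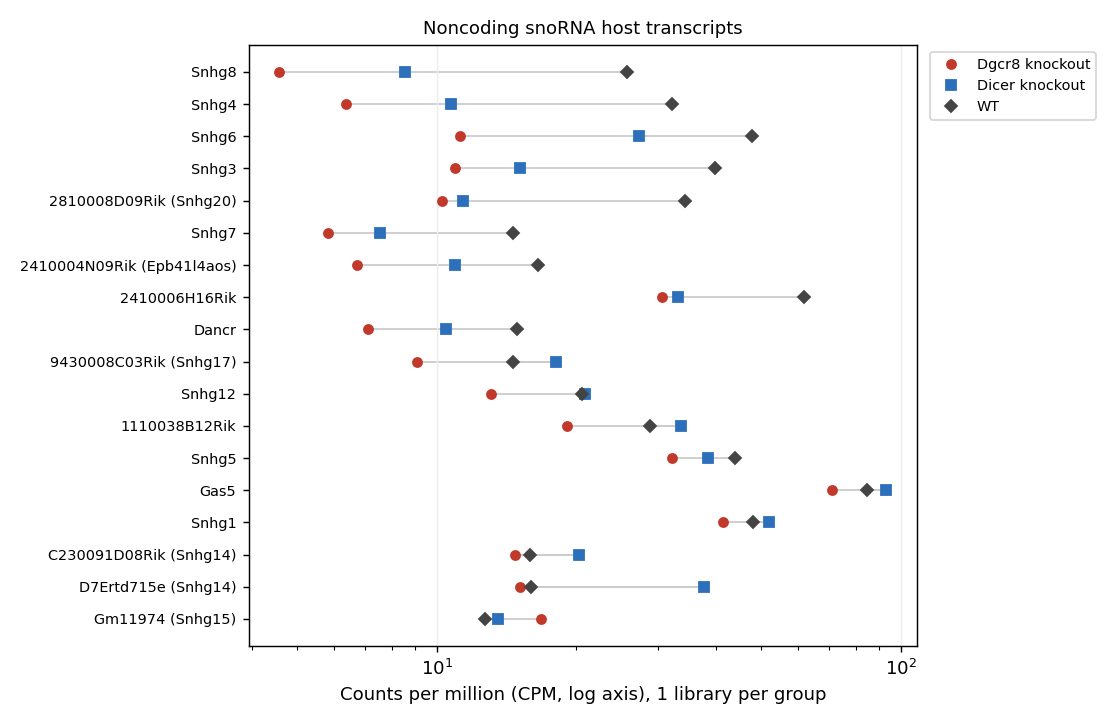
CPM on a log axis (horizontal) of the 18 noncoding snoRNA hosts (rows), with 1 symbol per library and hosts ordered by their Dgcr8 knockout over WT ratio. The Dgcr8 knockout symbol is leftmost in 17 rows, and in the top 5 rows the WT symbol lies farthest to the right, as for Snhg8 with 4.58, 8.53 and 25.8 CPM in the Dgcr8 knockout, Dicer knockout and WT libraries.

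The 3 coding hosts were lower in both knockouts than in WT, with Dgcr8 over Dicer ratios of 1.36, 1.09 and 1.13 for Rabggtb, Dlg1 and Lrrc28. Rabggtb, the beta subunit of the Rab geranylgeranyl transferase, had 100.2 CPM in the Dgcr8 knockout library, 73.8 CPM in the Dicer knockout library and 165 CPM in the WT library. Its ratio was 0.609 (0.564 to 0.657) in the Dgcr8 knockout and 0.449 (0.413 to 0.487) in the Dicer knockout. Dlg1, a scaffold protein of cell junctions, had 75.6, 69.5 and 103 CPM in the Dgcr8 knockout, Dicer knockout and WT libraries. Lrrc28 had 16 CPM in the Dgcr8 knockout library, 14.2 CPM in the Dicer knockout library and 28.1 CPM in the WT library. A wider list of 19 coding snoRNA hosts outside the group had medians of 0.02 and 0.07 in the Dgcr8 and Dicer knockouts against WT. On it 1 gene, the translation factor Eif4a2, was 2-fold lower in each knockout, against 8.02% and 9.7% of all genes. Eif4a2 had 247, 266 and 665 CPM in the Dgcr8 knockout, Dicer knockout and WT libraries.

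Lists of genes related to the noncoding hosts gave medians smaller in size than the hosts did. For the calls below, 8.02% of all genes were 2-fold lower in the Dgcr8 and 9.7% in the Dicer knockout. The 19 genes with 5′ terminal oligopyrimidine mRNAs had medians of -0.37 in the Dgcr8 knockout against WT and -0.28 in the Dicer knockout against WT, with 17 and 15 below 0, against 43.8% and 45.1% of all genes. Of them 1 was 2-fold lower in the Dgcr8 knockout (Tpt1, log2 ratio -1.39) and 2 in the Dicer knockout (Pabpc1, the poly(A)-binding protein, at -1.15, and Eef1d at -1.01). Of 17 proteins of snoRNA particles and their assembly 3 were lower in the Dgcr8 and 1 in the Dicer knockout, with medians of -0.26 and -0.25. Nop10, a core protein of H/ACA particles, had 52.2 CPM in the Dgcr8 knockout library, 91.2 CPM in the Dicer knockout library and 149 CPM in the WT library, and Fbl, the methyltransferase of C/D particles, had 380, 351 and 330 CPM. Nop10 shared the order of Snhg6 over the libraries and Fbl did not.

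Of 20 nonsense-mediated decay genes 2 were 2-fold lower in the Dgcr8 knockout, and 1 was higher and 1 lower in the Dicer knockout, with medians of 0.12 and 0.02. Magohb, a paralog of the exon junction protein Magoh, had 0.989 CPM (11 counts) in the Dgcr8 knockout library, 14.3 CPM (176 counts) in the Dicer knockout library and 5.03 CPM (50 counts) in the WT library. It was far lower in the Dgcr8 than in the Dicer knockout, at a log2 ratio of -2.94. Of 18 genes of the nuclear RNA exosome and its cofactors 1 was higher and 3 were lower in each knockout. Their medians were -0.33 and -0.28 in the Dgcr8 and Dicer knockouts. For all genes the shares were 8.02% lower and 14.3% higher in the Dgcr8 knockout, and 9.7% and 16% in the Dicer knockout. Dis3, a catalytic nuclease of the exosome, had 85.2 CPM in the Dgcr8 knockout library, 69.5 CPM in the Dicer knockout library and 318 CPM in the WT library. Dis3 was thus low in both knockout libraries, at log2 ratios of -1.89 and -2.18. Exosc10, on the same list, went the other way, at log2 ratios of 0.76 in the Dgcr8 and 0.43 in the Dicer knockout.

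The 6 members on a hand-written list of long noncoding RNAs were higher in the Dicer knockout library than in WT. The list held Malat1, Neat1, 2900097C17Rik (Norad), Tug1, 1700020I14Rik (Oip5os1) and Gm15441. All 6 were above WT in the Dicer knockout, a sign that 54.9% of all genes had, and all 6 intervals lay above 1, against 42.1% of all genes. Their median log2 ratio was 0.74 and none passed 2-fold. In the Dgcr8 knockout 4 of 6 were above 0, with a median of 0.27. Of the 6, 1 passed 2-fold under CPM and TMM scaling and none under median-ratio scaling. The list does not hold every long noncoding RNA with a known function, and its result is not one for all of them. Dancr and A930011O12Rik, the miR-124 host, were put in other classes and were below WT in the Dicer knockout.

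Malat1, which localizes to nuclear speckles, had 83.1 CPM in the Dgcr8 knockout library, 167 CPM in the Dicer knockout library and 83.9 CPM in the WT library. Neat1, the scaffold of paraspeckles, had 234, 411 and 284 CPM in the Dgcr8 knockout, Dicer knockout and WT libraries. Both were highest in the Dicer knockout library, with Malat1 at 1.99 times WT (1.83 to 2.16) and Neat1 at 1.45 times WT (1.38 to 1.51). Neat1 was lowest in the Dgcr8 knockout library, at 0.824 times WT (0.78 to 0.869), where Malat1 was at 0.99 times WT (0.901 to 1.09). Norad, a cytoplasmic RNA that binds Pumilio proteins, had 167 CPM in the Dgcr8 knockout library, 220 CPM in the Dicer knockout library and 144 CPM in the WT library. Tug1 had 12.9, 19.5 and 10.1 CPM in those libraries, so both had the Dicer knockout highest and WT lowest.

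Oip5os1 and Gm15441 had the Dgcr8 knockout highest. Oip5os1, the RNA also called Cyrano, carries an extended site for miR-7 and promotes the decay of that microRNA. It had 13.3 CPM (148 counts) in the Dgcr8 knockout library, 11.1 CPM (137 counts) in the Dicer knockout library and 5.64 CPM (56 counts) in the WT library. Gm15441, an antisense transcript of Txnip, had 33.2 CPM in the Dgcr8 knockout library, 26.6 CPM in the Dicer knockout library and 17.1 CPM in the WT library. Oip5os1 was at 2.36 times WT (1.72 to 3.27) in the Dgcr8 knockout and 1.97 times WT (1.44 to 2.74) in the Dicer knockout. Its Dgcr8 over Dicer ratio was 1.2 (0.941 to 1.52), an interval that includes 1.

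Firre (listed as 6720401G13Rik), an X-linked RNA that binds chromatin, had 9.80 CPM in the Dgcr8 knockout library, 13.7 CPM in the Dicer knockout library and 10.8 CPM in the WT library. Platr10 (listed as 2410007B07Rik), one of the transcripts named for their association with pluripotency, had 24.0, 32.4 and 20.2 CPM in those libraries. Both were highest in the Dicer knockout, as Malat1 and Neat1 were. For Firre the Dicer knockout was at 1.27 times WT (0.994 to 1.64), an interval that includes 1. Of 10 paraspeckle proteins none passed 2-fold in any comparison, with medians of 0.28 in the Dgcr8 knockout against WT and 0.33 in the Dicer knockout against WT. Sfpq had 440 CPM in the Dgcr8 knockout library, 449 CPM in the Dicer knockout library and 330 CPM in the WT library, and Nono had 613, 631 and 652 CPM. For Dgcr8 over Dicer the median of these proteins was -0.02, and the log2 ratio of Neat1 was -0.81.

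**Figure D3:**
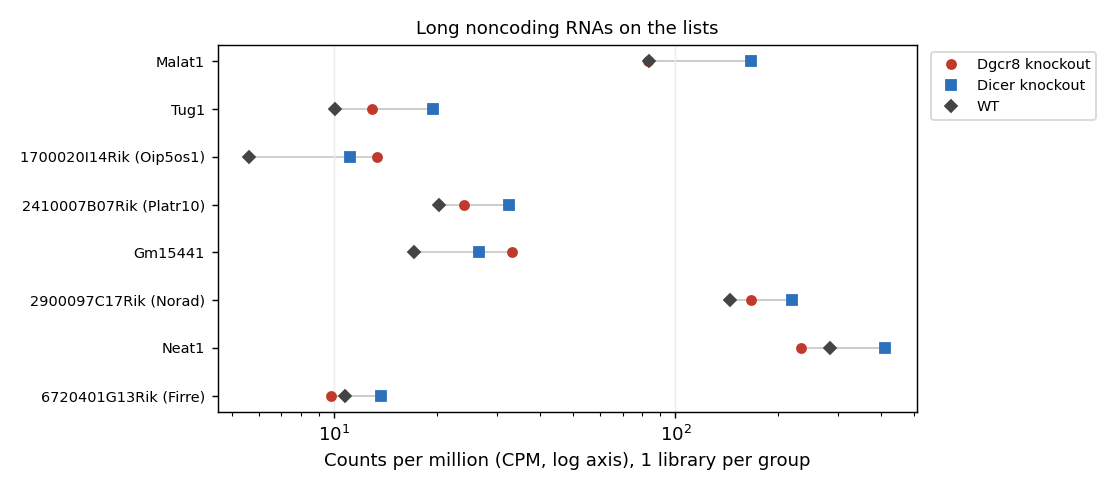
CPM on a log axis (horizontal) of 8 long noncoding RNAs (rows), with 1 symbol per library and rows ordered by their Dicer knockout over WT ratio. The Dicer knockout symbol lies right of the WT symbol in every row, from Malat1 (167 against 83.9 CPM) to Firre (13.7 against 10.8 CPM), and the Dgcr8 knockout symbol is left of WT for Neat1, Firre and, narrowly, Malat1.

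A microRNA gene lies inside 7 members by the reference table, 5 of them outside the snoRNA hosts. A930011O12Rik (Mir124a-1hg, also called Rncr3) is a host of miR-124, the microRNA best known from neurons. It had 25.1 CPM (279 counts) in the Dgcr8 knockout library, 9.10 CPM (112 counts) in the Dicer knockout library and 15.3 CPM (152 counts) in the WT library. The Dgcr8 knockout library was thus highest and the Dicer knockout library lowest, at 1.64 times WT (1.34 to 2.01) and 0.595 times WT (0.462 to 0.764). The direct ratio, Dgcr8 over Dicer, was 2.76 (2.21 to 3.46). In WT cells the small RNA library held 990 reads of miR-124-3p, or 382 reads per 1000000 (358 to 406), and 316 reads of miR-124-5p, among 2594949 reads. As miR-124 is encoded at several loci, these reads cannot be assigned to this host. miR-3078-5p from the same span had 2 reads, and miR-1949 from Snhg4 had 7 reads.

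The other 4 members with a microRNA gene inside are from genes of other functions, and no read was listed for the microRNAs inside them, nor for the one inside Snhg20. For a microRNA that is not listed, the limit that a count of 0 allows, taken as 3 of 2594949 reads, is 1.16 reads per 1000000. Etfb, a subunit of the electron transfer flavoprotein, had 114 CPM in the Dgcr8 knockout library, 85.5 CPM in the Dicer knockout library and 78.3 CPM in the WT library. Ankrd10 had 24.1, 15.8 and 16.4 CPM in those libraries. Both had the Dgcr8 knockout highest, at 1.46 times WT (1.33 to 1.59) and 1.47 times WT (1.2 to 1.79), with Dicer knockout intervals that include 1. Slc12a4, a potassium-chloride cotransporter, had 62.8 CPM in the Dgcr8 knockout library, 56.1 CPM in the Dicer knockout library and 41.0 CPM in the WT library. It was above WT in both, at 1.53 (1.35 to 1.73) and 1.37 (1.21 to 1.55) times. Raver1-fdx1l, a readthrough entry by its name, had 105 CPM in the Dgcr8 knockout library, 84.9 CPM in the Dicer knockout library and 85.8 CPM in the WT library, with the Dgcr8 knockout highest. All 5 members outside the snoRNA hosts were above 0 for Dgcr8 over Dicer, a sign that 50.3% of all genes had, and A930011O12Rik alone passed 2-fold. Of Snhg4 and Snhg20, the snoRNA hosts with a microRNA gene inside, Snhg4 was lower in the Dgcr8 than in the Dicer knockout library. Snhg20 was only slightly lower there, and its intervals against WT overlapped between the knockouts.

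The 72 pseudogene entries had medians near 0, -0.01 in the Dgcr8 knockout against WT and -0.04 in the Dicer knockout against WT. In the Dgcr8 knockout 3 were 2-fold higher and 8 lower, where 14.3% and 8.02% of all genes were, and in the Dicer knockout 5 were higher and 7 lower, where 16% and 9.7% of all genes were. The 10 members with the highest mean CPM, a ranking by counts and not per length, were all pseudogenes. Gm12070 was first, with 7493 CPM in the Dgcr8 knockout library, 5912 CPM in the Dicer knockout library and 6360 CPM in the WT library. Gm6682 had 1675, 1418 and 1336 CPM, Gm6793 had 1240, 1353 and 1184 CPM, and Gm5523 had 1398, 1095 and 1152 CPM in the Dgcr8 knockout, Dicer knockout and WT libraries. None of these passed 2-fold in any comparison.

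For 22 pseudogenes the symbol or a synonym names a gene that is also in the table, and reads shared with that gene could not be told apart. For the other pseudogene entries, Gm12070 among them, no such gene was matched, so reads shared with another gene were not checked. In 6 of 22 pairs the pseudogene count was 90 to 110% of the count of the gene in all 3 libraries. Morf4l1-ps1 (listed as A730098P11Rik) had 9430 counts in the Dgcr8 knockout library, 11410 in the Dicer knockout library and 6128 in the WT library, and Morf4l1, a chromatin protein, had 9494, 11551 and 6184. The entry thus held 99.3%, 98.8% and 99.1% of the count of the gene in the Dgcr8 knockout, Dicer knockout and WT libraries. Gm6644 held 96.5%, 96.3% and 96.5% of the count of Akr1b3, and Oaz1-ps held 94.2%, 94.4% and 93.7% of that of Oaz1, in the Dgcr8 knockout, Dicer knockout and WT libraries. The absolute difference in log2 ratio between pseudogene and gene had a median of 0.05 in the Dgcr8 knockout against WT and 0.11 in the Dicer knockout against WT. It was within 0.2 for 16 and 17 of 22 pairs. The ratio of such an entry cannot be told apart from that of the coding gene, and it is uncertain as a value of the pseudogene.

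A few pairs parted. Pisd-ps3 had 930 counts in the Dgcr8 knockout library, 1218 in the Dicer knockout library and 589 in the WT library, and Pisd-ps1 had 343, 443 and 232. Pisd, the mitochondrial phosphatidylserine decarboxylase, had 536 counts in the Dgcr8 knockout library, 753 in the Dicer knockout library and 828 in the WT library. Both pseudogenes were above WT in the knockouts where the gene was below, and in the Dgcr8 knockout the log2 ratios differed by 1.27 and 1.16. Gm5088, with Pabpc4l among its synonyms, had 1368, 1298 and 3680 counts in the Dgcr8 knockout, Dicer knockout and WT libraries, and Pabpc4l had 6, 10 and 29. In that pair the entry held nearly all counts, and both were highest in WT.

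**Figure D4:**
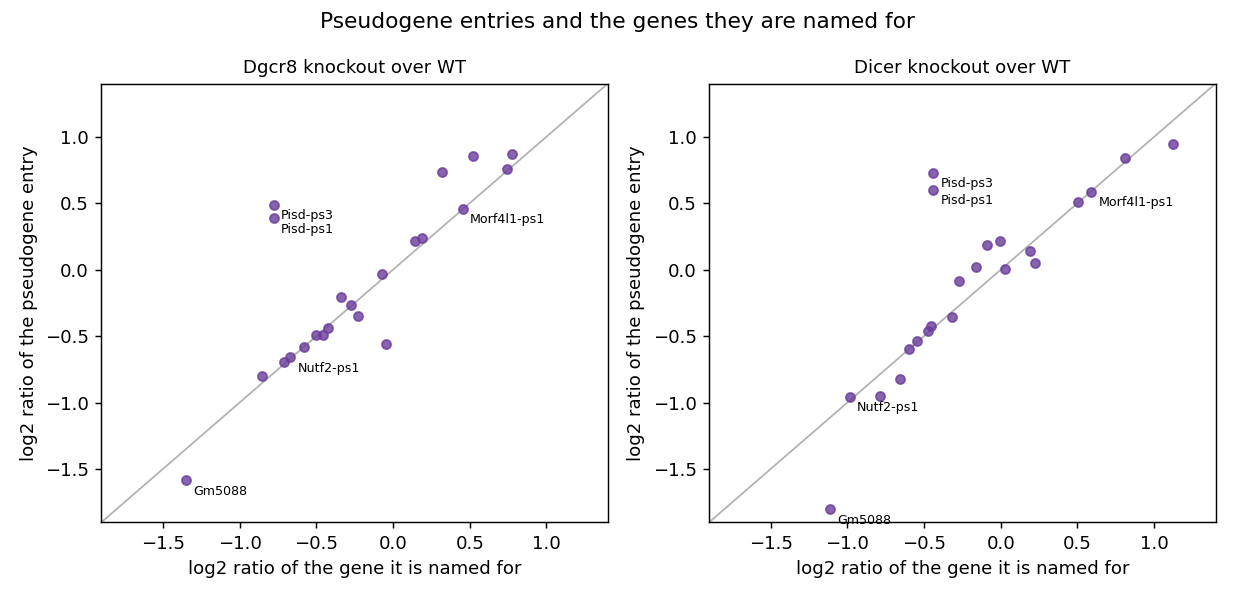
Log2 ratio of the pseudogene entry (vertical axis) against that of the gene it is named for (horizontal axis), 1 point for each of 22 pairs, for Dgcr8 knockout over WT and for Dicer knockout over WT; the line marks equal ratios. Most points lie near the line, within 0.2 for 16 and 17 pairs, and the 2 Pisd pseudogenes lie above it. Points of 1 panel share libraries, and pairs may share reads.

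The pseudogene entries with the largest differences include the extremes of the whole group. 2210409E12Rik had 3.15 CPM (35 counts) in the Dgcr8 knockout library, 1.22 CPM (15 counts) in the Dicer knockout library and 26.5 CPM (263 counts) in the WT library. It was the lowest member against WT in both knockouts, at 0.119 times WT (0.081 to 0.169) and 0.046 times WT (0.0254 to 0.0773). Its counts stood high in the library where the fibroblast markers did, and their part in it was not tested. BC052688 had 8.0 CPM (89 counts) in the Dgcr8 knockout library, 16.2 CPM (200 counts) in the Dicer knockout library and 1.21 CPM (12 counts) in the WT library. It was at 13.4 times WT (7.53 to 26.5) in the Dicer knockout, and the width of that interval comes from the 12 counts in WT. Gm17821 had 7.37, 18.7 and 2.52 CPM in the Dgcr8 knockout, Dicer knockout and WT libraries, the same order as BC052688.

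Gm10409 and Gm3002 were low together. Gm10409 had 23.1 CPM in the Dgcr8 knockout library, 15.2 CPM in the Dicer knockout library and 61.1 CPM in the WT library. Gm3002 had 34.4, 20.6 and 79.0 CPM, and Gm5424 had 182, 132 and 462 CPM in the Dgcr8 knockout, Dicer knockout and WT libraries. In all 3 the Dicer knockout library was lowest and WT highest, with Dicer knockout ratios of 0.249 (0.21 to 0.293), 0.261 (0.226 to 0.301) and 0.285 (0.269 to 0.301). Znf41-ps, named for a zinc finger gene, had 36.4 CPM in the Dgcr8 knockout library, 125 CPM in the Dicer knockout library and 31.2 CPM in the WT library. It was high in the Dicer knockout library alone, at 4.01 times WT (3.54 to 4.54), and at 1.17 times WT in the Dgcr8 knockout, where the interval begins at 1.

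Members from coding genes were more often 2-fold higher than 2-fold lower in the knockouts, as the table was; their share of 2-fold calls was below that of all genes. Of 81 such members outside the other classes 8 were 2-fold higher and 3 lower in the Dgcr8 knockout, and 10 higher and 5 lower in the Dicer knockout, with medians of 0.15 and 0.23. Calls in either direction made up 13.6% and 18.5% of them in the Dgcr8 and Dicer knockouts, against 22.3% and 25.7% of all genes. Gnb5, a G protein beta subunit, had 30.4 CPM (338 counts) in the Dgcr8 knockout library, 22.7 CPM (279 counts) in the Dicer knockout library and 5.14 CPM (51 counts) in the WT library. It was the highest member in the Dgcr8 knockout against WT on log2(CPM + 1), at 2.35, with a CPM ratio of 5.92 (4.4 to 8.11), where BC052688 with fewer counts had 6.62 (3.61 to 13.3). Nnt, the mitochondrial transhydrogenase that makes NADPH, had 71.0 CPM in the Dgcr8 knockout library, 114 CPM in the Dicer knockout library and 14.6 CPM in the WT library. Nnt was at 4.86 times WT (4.07 to 5.85) in the Dgcr8 knockout and 7.8 times WT (6.57 to 9.32) in the Dicer knockout. WT was far lowest for Gnb5 and Nnt, and the higher of the 2 knockout libraries was a different one for each.

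Apela (listed as Gm10664), which encodes a peptide ligand of the apelin receptor expressed in pluripotent cells, had 57.2 CPM in the Dgcr8 knockout library, 75.3 CPM in the Dicer knockout library and 16.1 CPM in the WT library. Arhgap1, a GTPase-activating protein, had 174, 142 and 53.4 CPM in the Dgcr8 knockout, Dicer knockout and WT libraries. Wls, the carrier needed for secretion of Wnt proteins, had 24.1 CPM in the Dgcr8 knockout library, 25.8 CPM in the Dicer knockout library and 7.95 CPM in the WT library. These 3 were lowest in WT, at 3.55 (2.98 to 4.25), 3.26 (2.96 to 3.6) and 3.03 (2.35 to 3.94) times WT in the Dgcr8 knockout. Their ratios in the Dicer knockout were 4.67 (3.95 to 5.56), 2.66 (2.42 to 2.94) and 3.25 (2.53 to 4.21). Arrdc1, an arrestin-related protein of vesicle budding, had 12.1 CPM in the Dgcr8 knockout library, 22.9 CPM in the Dicer knockout library and 4.23 CPM in the WT library, so the Dicer knockout was highest.

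Of the coding genes lower in the knockouts, Aes (Tle5) encodes a protein of the Groucho family. Aes had 166 CPM in the Dgcr8 knockout library, 86.0 CPM in the Dicer knockout library and 254 CPM in the WT library. Myeov2 (Cops9), a subunit of the COP9 signalosome, had 15.6, 13.4 and 42.2 CPM in the Dgcr8 knockout, Dicer knockout and WT libraries. Myeov2 was low in both knockouts alike, at 0.371 times WT (0.309 to 0.444) and 0.318 times WT (0.264 to 0.381), and Aes was lowest in the Dicer knockout, at 0.338 times WT (0.314 to 0.363). Phc1, a Polycomb protein, had 373 CPM in the Dgcr8 knockout library, 432 CPM in the Dicer knockout library and 255 CPM in the WT library. Fth1, the ferritin heavy chain, had 304, 328 and 485 CPM in those libraries, and was lower in both knockouts without passing 2-fold.

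**Figure D5:**
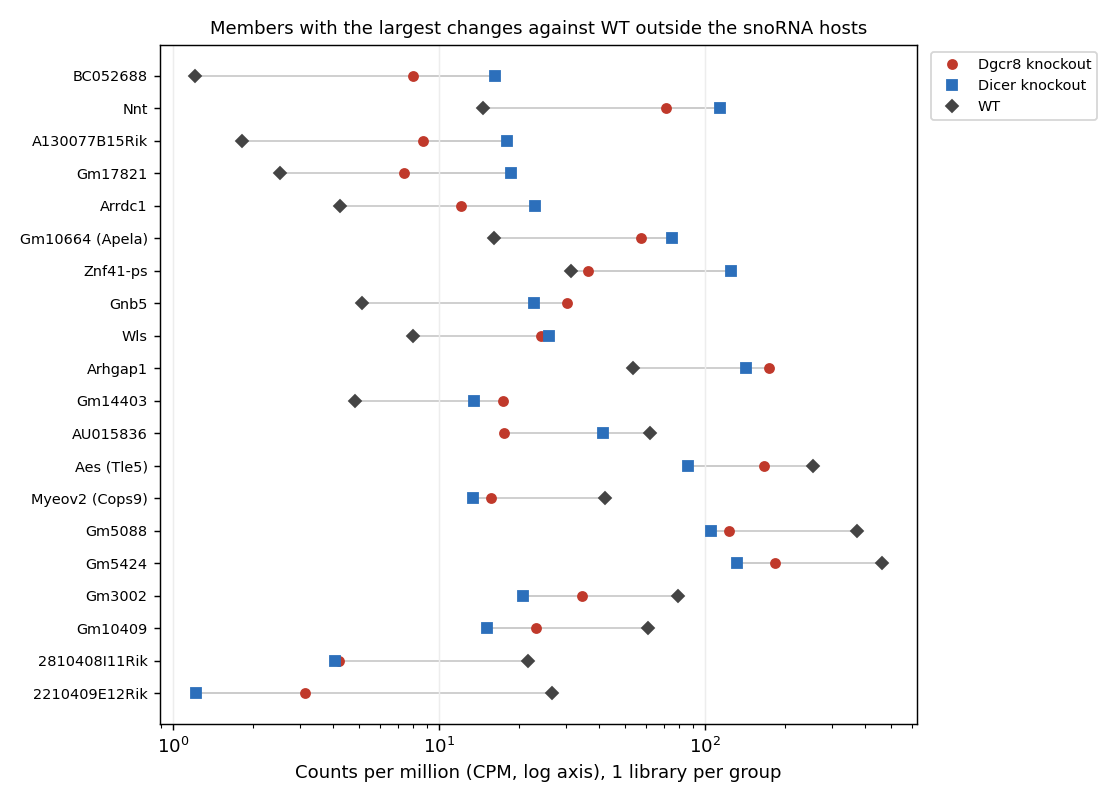
CPM on a log axis (horizontal) of the members outside the snoRNA hosts that were among the 8 highest or 8 lowest against WT in either knockout (rows), with 1 symbol per library and rows ordered by their Dicer knockout over WT ratio. WT is leftmost in the upper 11 rows, from BC052688 (1.21 CPM) to Gm14403, and rightmost in the 9 rows from AU015836 to 2210409E12Rik (26.5 CPM).

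Of 25 other noncoding genes, 9 passed 2-fold against WT in each knockout: 5 higher and 4 lower in the Dgcr8 knockout, and 6 higher and 3 lower in the Dicer knockout. That is 36% of the class in each, against 22.3% and 25.7% of all genes in the Dgcr8 and Dicer knockouts. A130077B15Rik had 8.72 CPM (97 counts) in the Dgcr8 knockout library, 18 CPM (222 counts) in the Dicer knockout library and 1.81 CPM (18 counts) in the WT library. Gm14403 had 17.4, 13.5 and 4.83 CPM in those libraries. Both were lowest in WT, at 4.81 (2.89 to 8.46) and 3.61 (2.62 to 5.06) times WT in the Dgcr8 knockout. 2810408I11Rik had 4.23 CPM (47 counts) in the Dgcr8 knockout library, 4.06 CPM (50 counts) in the Dicer knockout library and 21.6 CPM (215 counts) in the WT library. It was equally low in both knockouts, at 0.195 times WT (0.139 to 0.269) and 0.188 times WT (0.135 to 0.256). AU015836 had 17.5 CPM in the Dgcr8 knockout library, 41.2 CPM in the Dicer knockout library and 62.0 CPM in the WT library, so the libraries were spaced apart as they were for Snhg6. Among the 3 unmatched entries Gm17066 had 28.9, 51.7 and 92.1 CPM in the Dgcr8 knockout, Dicer knockout and WT libraries, and LOC106740 had 5.48, 7.15 and 17.3 CPM. Both were called lower in the Dgcr8 knockout.

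Between the knockouts, Dgcr8 over Dicer, the 4 higher members were Tmem181b-ps, A930011O12Rik, Tmem181c-ps and Gm8580. Tmem181b-ps had 50.8 CPM in the Dgcr8 knockout library, 17.5 CPM in the Dicer knockout library and 34.6 CPM in the WT library. Tmem181c-ps had 31.4, 12.1 and 25.7 CPM, and Gm8580 had 34.3, 13.4 and 34.3 CPM, in the Dgcr8 knockout, Dicer knockout and WT libraries. All 3 were lowest in the Dicer knockout library, with direct ratios of 2.89 (2.47 to 3.4), 2.59 (2.13 to 3.16) and 2.56 (2.13 to 3.09). Reads of the 2 Tmem181 pseudogenes may be shared, since they are copies of the same gene by name. The 9 lower members were Znf41-ps, D7Ertd715e, Gm17821, Snhg6, BC021767, AU015836, Rcbtb2, Gm5512 and Kctd18. Znf41-ps was lowest, at 0.291 (0.26 to 0.325). Rcbtb2 had 29.9 CPM in the Dgcr8 knockout library, 67.5 CPM in the Dicer knockout library and 40.9 CPM in the WT library. BC021767 had 9.08, 22 and 10.8 CPM and Gm5512 had 10.6, 23.4 and 15.7 CPM in those libraries. These 3 were highest in the Dicer knockout library and lowest in the Dgcr8 knockout library.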

How the data were processed

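Deposited were 2 tables: mRNA counts per gene for the 3 libraries, and read counts of mature microRNAs in WT cells. Per the submitters' processing notes, reads were processed with Bowtie against mm9; the version, counting program, annotation and use of strand were not given in the sources used here. Deposited counts are whole numbers with unequal totals and were taken as not normalized by the authors; empty cells were read as 0.

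Counts were divided by each library's total (CPM). Log2 ratios used a pseudocount of 1 and a floor of 1 CPM in either library, and ratios of CPM carry exact conditional binomial 95% intervals (SciPy 1.17.1). With 1 library per group no test was run. Totals of 9931625 to 12309100 counts make 1 CPM about 10 to 12 counts, and 3 counts, the limit that a count of 0 allows, 0.244 to 0.302 CPM. TMM factors came from edgeR 4.0.16. The calculation was tested on simulated data.

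Gene types, snoRNA and microRNA genes inside members, and sequences came from RefSeq (GRCm38.p6). Of the 216 members 185 matched by accession, 19 by symbol and 9 by synonym. Classes came from hand-written lists, then microRNA genes inside, antisense names and gene type. Minos1, a coding gene whose symbol ends like an antisense name, was put with the coding genes after it was seen. Members and lists were chosen with earlier results of these data known. Named were members of lists, the 10 with most counts, the 8 highest and lowest of each comparison, and those at the threshold. Up to 4 genes of each related list were named too. Fth1, Phc1, LOC106740, Gm17066, Kctd18, Fbl, Nono, Sfpq and Exosc10 were added after their values were seen. The replicate number is 1 in every group and pairs nothing.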

Additional observations from a re-analysis of the deposited data

Results flagged for a closer look

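Of the 216 members, 3 had log2 ratios against WT of at least 0.5 in size in opposite directions in the knockouts, with counting intervals that leave out 1 in both. The share of all genes that meet this rule was not counted, so the number is no result about the members. With 1 library per group the difference was not tested. The log2 ratio of A930011O12Rik, the miR-124 host, was 0.68 in the Dgcr8 knockout against WT and -0.69 in the Dicer knockout against WT. Tmem181b-ps had log2 ratios of 0.54 in the Dgcr8 knockout, with -0.94 in the Dicer knockout. Gm5512 had the opposite order, with -0.53 in the Dgcr8 knockout, with 0.55 in the Dicer knockout.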

How the results depend on the processing

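No paired analysis was possible because each group has 1 library. For members 2-fold higher in the Dgcr8 knockout against WT (17), a pseudocount of 5 gave 9, a call at 1.5-fold 33, a call at 4-fold 3, and members of at least 1000 counts 4; for those lower (24) the last 3 settings gave 43, 4 and 7. For the Dicer knockout against WT, the higher members (22) became 46, 6 and 8 and the lower ones (21) 42, 2 and 6 at 1.5-fold, at 4-fold and with at least 1000 counts. For Dgcr8 over Dicer, the higher members (4) became 19, 0 and 1 and the lower ones (9) 37, 0 and 3 under those settings; a pseudocount of 5 left 4 lower, and leaving out the 72 pseudogenes, a setting added after the data were seen, left 1 higher and 5 lower. The median of the members was -0.16 with median-ratio factors and -0.13 with TMM factors for the Dgcr8 knockout against WT, and -0.060 and -0.054 for the Dicer knockout against WT, where it was 0.05 under CPM. The counts change with the call and the number of members by construction. A larger pseudocount also lowers them by construction, since it draws every log2 ratio toward 0, most for low genes. The other settings kept the counts within 1.5 times. With 1 library per group, low counts such as the 12 of BC052688 in WT limit the ratios.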
